A study of Mus musculus with 8 samples.

Results

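A set of 31 genes of developing thymocytes and T cells, of 37208 genes on the array, was followed across sorted mouse thymic dendritic cells. Transcripts without a gene symbol are counted among all genes throughout. The members were taken by gene symbol: the receptor complex and its co-receptors, the kinases and adaptors next to the receptor, T cell surface receptors, the genes of receptor rearrangement, and T lineage transcription regulators. They were chosen with earlier results of these data known. Counts of members beside all genes therefore describe the list and do not test it. All 31 were on the array, with 44 of its 55681 probes, and 12 of them had more than 1 probe. The data are 8 one-colour Agilent arrays of total RNA from cells of the thymus sorted by Sirpa status and by maturation. There were 4 groups of 2 arrays, named here by their title numbers: Sirpa-positive immature (arrays 3 and 5), Sirpa-positive mature (1 and 6), Sirpa-negative immature (4 and 7) and Sirpa-negative mature (2 and 8). The labels used here name no strain, genotype, age or treatment. They also do not say whether a group's 2 arrays are separate animals or separate sorts, so the p-values rest on a spread that may be purely technical.

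The T cell receptor is held at the surface by the CD3 chains and the zeta chain, and signals through the kinases Lck and Zap70 to the adaptor Lat. Thymocytes assemble the receptor genes with the Rag1 and Rag2 recombinase and with terminal transferase, encoded by Dntt, and pair the first beta chain with the pre-T alpha chain, encoded by Ptcra. Dendritic cells display antigen to thymocytes and lie in close contact with them, and they use Cd8a and Cd4 themselves: as background, CD8 alpha is known on the Sirpa-negative conventional lineage and CD4 on part of the Sirpa-positive and plasmacytoid lineages. The comparisons asked whether the member transcripts differed together by 1 common factor or singly.

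Levels are log2 signals with each array's 75th percentile set to 0, and a difference is a difference of these log2 levels. Between 52.9% and 65.5% of spots per array were well above background and none was saturated, and across genes the 2 arrays in a group had correlations of 0.979 to 0.987, against 0.908 to 0.963 for arrays of different groups. Sirpa, which defined the sort, was higher in the Sirpa-positive cells by 6.83 (immature) and 4.82 (mature), and the dendritic cell genes Itgax and Flt3 lay at group means of 3.57 to 4.61 and 2.79 to 4.21. Of the members, 29 were tested among 24171 genes, 24 of them well above background on all 8 arrays. Tox, a regulator of thymocyte selection, was above background on 0 arrays. Sh2d1a, the adaptor SAP, was above background on 2 arrays, Sirpa-positive mature 1 and Sirpa-negative mature 2, and was not tested.

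Most of the tested members were higher in mature than in immature Sirpa-negative cells, and a smaller number passed in Sirpa-positive cells. In Sirpa-negative cells 20 of 29 tested members were higher and 1, Cd6, lower by the probe used for it (limma, adjusted p below 0.05), with a median difference of 1.44 against -0.01 over all genes. Of all genes tested there, 16.5% were called, 9.22% higher and 7.24% lower. In Sirpa-positive cells 10 of 29 were higher and 0 lower, with a median of 0.85 against 0.03 over all genes. Of all genes tested there, 6.88% were called, 4.35% higher and 2.53% lower. The estimate was above 0 for 27 members in Sirpa-positive and 26 in Sirpa-negative cells, against 12735 and 11887 of all 24171 genes tested. In bulk RNA of sorted cells, fewer cells of a type and less RNA per cell cannot be told apart.

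Tcf7, Thy1, Themis, Rag1, Dntt, Lef1, Gata3, Prkcq and Cd27 were higher in both subsets, which is 9 of the 10 called higher in Sirpa-positive cells and 9 of the 20 in Sirpa-negative cells. A further 11, Cd3d, Cd3e, Cd3g, Cd247, Cd8b1, Rag2, Lck, Cd2, Satb1, Trat1 and Arpp21, passed in Sirpa-negative cells, and Cd8a passed in Sirpa-positive cells. In Sirpa-positive cells the second kept probes of Themis, Rag1 and Cd27 gave 1.42, 0.99 and 1.07 and did not pass. Their adjusted p was 0.0553, 0.412 and 0.0911 in limma, and in Sirpa-negative cells all of them passed. Cd6 passed as lower in Sirpa-negative cells by the probe used for it, while its other probe passed as higher, so its call gives no direction for the gene. Cd4, Ptcra, Zap70, Lat, Bcl11b, Cd5 and Cd28 passed in neither. That a gene passed in 1 subset alone does not show that the subsets differ: the test of the difference between the maturation changes called 0 members and 0% of all genes after adjustment, with 6 members and 1948 genes at an unadjusted p under 0.05 in limma. That test called 0 members under each alternative too. Each member's difference in both subsets is plotted with its standard error.

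**Figure D1:**
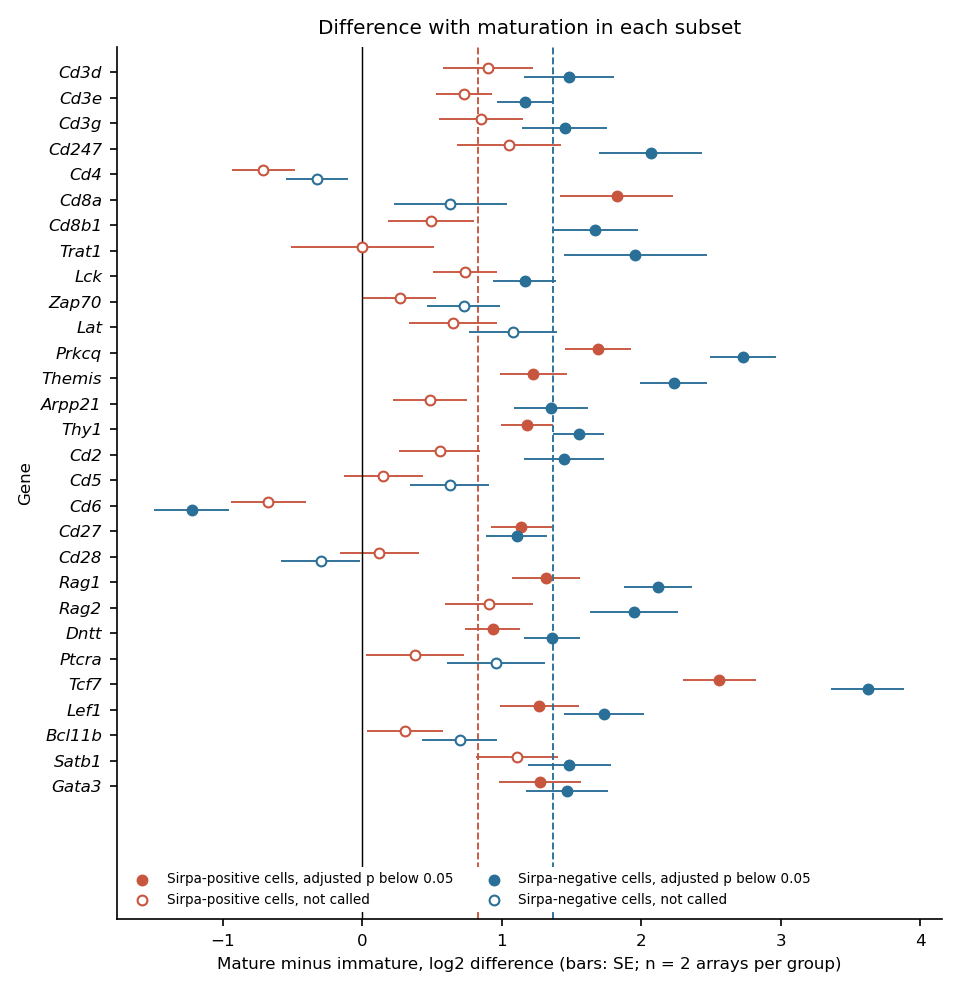
Mature minus immature log2 difference (horizontal axis) of the 29 tested members (vertical axis) in Sirpa-positive (red) and Sirpa-negative (blue) cells. Points are limma estimates, bars their standard errors, filled points passed an adjusted p of 0.05, and dashed lines mark the mean of Cd3d, Cd3e and Cd3g in each subset, 0.83 and 1.37; Tcf7 lies farthest right in both, and Cd4 and Cd6 lie left of 0 in both.

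The CD3 and zeta chains of the receptor complex were higher in mature than in immature Sirpa-negative cells, by 1.17 to 2.07, and in Sirpa-positive cells their estimates of 0.73 to 1.05 did not pass. Cd3d, the delta chain, measured 1.39 and 1.85 on the Sirpa-positive immature arrays and 2.17 and 2.87 on the mature ones, and 1.37 and 1.59 on the Sirpa-negative immature arrays and 2.69 and 3.24 on the mature ones. Its mature arrays lay above its immature arrays in each subset, by 1.48 ± 0.32 (SE) in Sirpa-negative cells (adjusted p = 0.0221) and by 0.90 ± 0.32 in Sirpa-positive cells (adjusted p = 0.167). Cd3e, the epsilon chain, measured -0.19 and -0.14 against 0.59 and 0.54 in Sirpa-positive cells, and -0.13 and -0.39 against 1.03 and 0.78 in Sirpa-negative cells, immature first. No immature array reached a mature one, and the differences were 0.73 ± 0.20 (adjusted p = 0.0851) and 1.17 ± 0.20 (adjusted p = 0.01).

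Cd3g, the gamma chain, measured -3.05 and -2.81 against -1.84 and -2.32 in Sirpa-positive cells, and -2.72 and -3.32 against -1.34 and -1.80 in Sirpa-negative cells. The groups did not overlap within either subset, and the differences were 0.85 ± 0.30 (adjusted p = 0.165) and 1.45 ± 0.30 (adjusted p = 0.0188). Cd247, the zeta chain, ranged from -2.42 to 0.24 over the arrays and was higher in Sirpa-negative mature cells by 2.07 ± 0.37 (adjusted p = 0.0113). Trat1, an adaptor that steadies the receptor complex, ranged from -5.29 to -2.23. Its estimate was 0.00 in Sirpa-positive cells and 1.96 ± 0.51 in Sirpa-negative cells (adjusted p = 0.0412), where immature array 4 was not well above background.

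The 3 CD3 genes are neighbours on chromosome 9 in the RefSeq annotation, and Rag1 with Rag2, Cd8a with Cd8b1 and Cd5 with Cd6 are neighbours on chromosomes 2, 6 and 19. The 250 bases upstream of 5 member genes are shown because the neighbouring CD3 genes serve as the reference for the other members below, and because Rag1 and Cd8a stand for the rearrangement genes and for a co-receptor whose level separated the subsets. They are from RefSeq on GRCm38.p6, 5′ to 3′ on the gene's strand: Cd3d chr9:44981536-44981785 (+), Cd3e chr9:45009612-45009861 (-), Cd3g chr9:44980432-44980681 (-), Rag1 chr2:101649533-101649782 (-) and Cd8a chr6:71373177-71373426 (+). Capitals mark matches, on either strand, to an E-box (CAGCTG or CACCTG), a RUNX motif (TGTGGT), a TCF/LEF motif (CTTTGA) or a GATA motif (AGATAA), and no match overlaps another in these windows.
Cd3d: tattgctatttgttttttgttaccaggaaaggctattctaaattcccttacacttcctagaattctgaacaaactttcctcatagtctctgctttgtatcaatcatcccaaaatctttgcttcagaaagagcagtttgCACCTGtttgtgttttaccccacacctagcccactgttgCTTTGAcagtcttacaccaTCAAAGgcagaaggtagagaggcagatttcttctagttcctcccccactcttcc
Cd3e: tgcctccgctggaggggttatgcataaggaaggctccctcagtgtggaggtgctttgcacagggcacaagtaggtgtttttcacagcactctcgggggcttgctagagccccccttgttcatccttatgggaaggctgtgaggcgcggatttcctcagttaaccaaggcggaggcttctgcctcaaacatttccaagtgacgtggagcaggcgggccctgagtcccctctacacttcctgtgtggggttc
Cd3g: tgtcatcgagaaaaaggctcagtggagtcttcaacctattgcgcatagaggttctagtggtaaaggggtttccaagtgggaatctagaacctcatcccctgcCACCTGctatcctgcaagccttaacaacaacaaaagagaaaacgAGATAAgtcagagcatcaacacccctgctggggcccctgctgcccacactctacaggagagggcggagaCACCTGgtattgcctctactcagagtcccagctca
Rag1: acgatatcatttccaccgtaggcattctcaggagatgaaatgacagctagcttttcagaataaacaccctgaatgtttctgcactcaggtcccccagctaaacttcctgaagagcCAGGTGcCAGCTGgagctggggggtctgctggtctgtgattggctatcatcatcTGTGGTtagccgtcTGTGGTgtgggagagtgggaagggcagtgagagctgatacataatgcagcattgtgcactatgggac
Cd8a: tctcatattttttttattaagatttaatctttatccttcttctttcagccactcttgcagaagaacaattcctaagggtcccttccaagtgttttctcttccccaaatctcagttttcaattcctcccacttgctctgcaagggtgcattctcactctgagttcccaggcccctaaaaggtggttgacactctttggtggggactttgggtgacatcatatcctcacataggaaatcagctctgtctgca

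A window was given for 23 of the 31 members. An E-box was found in 8 of them (34.8%, against 27.4% of all 27025 windows), among them Cd3d, Cd3g, Rag1 and Tcf7. A RUNX motif was in 4 (17.4% against 14.2%), a TCF/LEF motif in 4 (17.4% against 14%), a GATA motif in 3 (13% against 10.3%), and a kappaB motif in 0 (against 1.4%). The windows of Cd3e and Cd8a hold none of these letters, and a match is a description of the letters only.

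The co-receptor genes differed between the subsets in opposite directions. Cd4 was higher in Sirpa-positive cells and Cd8a in Sirpa-negative cells at both stages, and Cd8b1, the beta chain that joins CD8 alpha on T cells, was higher in Sirpa-negative cells at the mature stage. Among immature cells 3 members were higher in Sirpa-positive cells (Cd4, Thy1 and Prkcq) and 1 lower (Cd8a), when 11.6% of all genes were called, 7.22% higher and 4.37% lower. Among mature cells 1 was higher (Cd4) and 4 lower (Cd8a, Cd8b1, Rag2 and Dntt), when 5.48% were called, 3.38% higher and 2.10% lower. The member medians of these subset differences were 0.10 and -0.35 against -0.11 and -0.07 over all genes.

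Cd4 measured 5.07 and 4.73 on the Sirpa-positive immature arrays, 4.16 and 4.22 on the mature ones, 1.48 and 1.80 on the Sirpa-negative immature arrays and 1.21 and 1.42 on the mature ones. All 4 Sirpa-positive arrays lay above all 4 Sirpa-negative arrays. The subset difference was 3.26 ± 0.22 among immature cells (9.59-fold, adjusted p = 0.000164) and 2.88 ± 0.22 among mature cells (7.35-fold, adjusted p = 0.000595). With maturation the estimates were -0.71 ± 0.22 (adjusted p = 0.122) and -0.32 ± 0.22 (adjusted p = 0.391), below 0 where most members were above it. The other Cd4 probe gave -0.98 in Sirpa-positive cells (adjusted p = 0.0341).

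Cd8a measured 0.94 and 0.45 on the Sirpa-positive immature arrays, 2.77 and 2.26 on the mature ones, 4.83 and 3.88 on the Sirpa-negative immature arrays and 5.34 and 4.62 on the mature ones. The Sirpa-negative arrays were the 4 highest, and their immature and mature values overlapped. Sirpa-positive cells were lower by 3.66 ± 0.41 on the log2 scale when immature (12.6-fold, adjusted p = 0.00135) and by 2.46 ± 0.41 when mature (5.52-fold, adjusted p = 0.0149). Cd8a was higher in mature than immature Sirpa-positive cells by 1.83 ± 0.41 (adjusted p = 0.0419), a call that its other probe did not share (0.89, adjusted p = 0.216).

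Cd8b1 measured -1.70 and -1.69 on the Sirpa-positive immature arrays, -1.13 and -1.28 on the mature ones, -0.82 and -1.02 on the Sirpa-negative immature arrays and 1.21 and 0.28 on the mature ones. The Sirpa-negative mature arrays stood above the other 6. The maturation difference was 1.67 ± 0.31 in Sirpa-negative cells (adjusted p = 0.0127) and 0.49 ± 0.31 in Sirpa-positive cells (adjusted p = 0.454), and mature Sirpa-positive cells were 3.87-fold lower than mature Sirpa-negative cells (adjusted p = 0.0125).

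**Figure D2:**
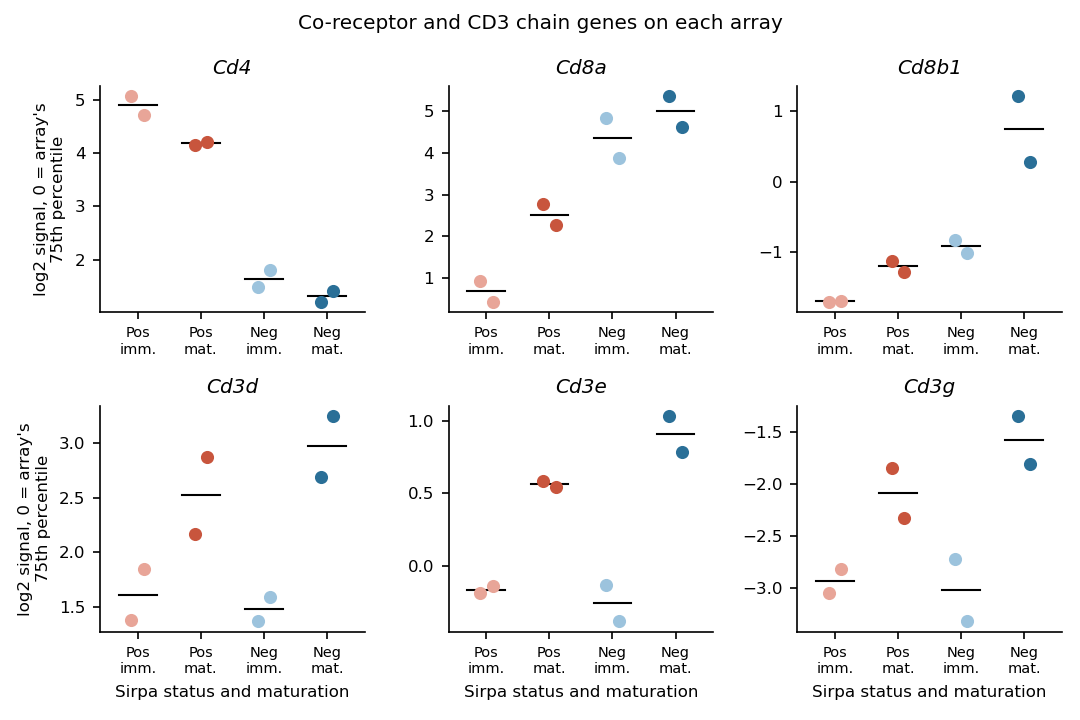
Log2 signal (vertical axis, 0 at each array's 75th percentile, a separate scale for each gene) of Cd4, Cd8a, Cd8b1 and the CD3 chain genes in the 4 groups (horizontal axis; imm., immature; mat., mature). Points are single arrays and bars the mean of 2; Cd4 separates the subsets one way and Cd8a the other way, while the immature values of the CD3 genes overlap between subsets.

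Among the receptor-proximal signalling genes, 2 of 6 tested were higher in mature Sirpa-positive cells and 4 of 6 in mature Sirpa-negative cells, when 4.35% and 9.22% of all genes were. Lck, the kinase bound to the co-receptors, measured -0.78 and -0.48 against -0.00 and 0.21 in Sirpa-positive cells, and -0.81 and -0.66 against 0.25 and 0.61 in Sirpa-negative cells, immature first. The stages did not overlap in either subset, with differences of 0.74 ± 0.23 (adjusted p = 0.116) and 1.16 ± 0.23 (adjusted p = 0.0152). Prkcq, protein kinase C theta, measured -3.08 and -3.02 against -1.33 and -1.39, and -4.43 and -3.87 against -1.33 and -1.50, with immature Sirpa-negative array 4 not well above background. Its mature levels lay within 0.2 of each other in both subsets and its immature Sirpa-negative arrays were the lowest, so the differences were 1.69 ± 0.24 (adjusted p = 0.00896) and 2.73 ± 0.24 (adjusted p = 0.000861), and immature Sirpa-positive cells were 2.14-fold above immature Sirpa-negative cells (adjusted p = 0.0253).

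Themis, which tunes receptor signals during selection, measured -2.73 and -2.89 against -1.32 and -1.84 in Sirpa-positive cells, and -2.98 and -2.83 against -0.57 and -0.78 in Sirpa-negative cells. All mature arrays exceeded all immature ones, by 1.23 ± 0.24 (adjusted p = 0.0275) and 2.23 ± 0.24 (adjusted p = 0.00168), and Sirpa-negative immature array 4 was not well above background. Zap70 and Lat did not pass in either subset, with estimates of 0.27 and 0.73, and of 0.65 and 1.08. Arpp21, an RNA-binding phosphoprotein of immature thymocytes, was higher in mature Sirpa-negative cells by 1.35 ± 0.26 (adjusted p = 0.015). Its other kept probe gave 0.93 there and did not pass (adjusted p = 0.0812).

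The surface receptors did not share 1 pattern. Thy1, the classical thymocyte glycoprotein, measured 1.75 and 1.75 against 2.87 and 3.0 in Sirpa-positive cells and 1.0 and 0.91 against 2.53 and 2.49 in Sirpa-negative cells. Its replicates were close and its 4 groups did not overlap, with maturation differences of 1.18 ± 0.18 (adjusted p = 0.0128) and 1.55 ± 0.18 (adjusted p = 0.0024), and a subset difference of 0.80 ± 0.18 among immature cells (adjusted p = 0.0326). Cd27, a costimulatory receptor of the tumour necrosis factor family, measured -1.64 and -1.72 against -0.77 and -0.30, and -1.30 and -1.26 against -0.19 and -0.15. It rose by nearly the same amount in both, 1.14 ± 0.22 (adjusted p = 0.026) and 1.11 ± 0.22 (adjusted p = 0.0155). Cd2, an adhesion receptor, was higher in mature Sirpa-negative cells by 1.44 ± 0.29 (adjusted p = 0.0161).

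Cd28, the costimulatory receptor for CD80 and CD86, measured 1.37 and 1.18 against 1.56 and 1.23 in Sirpa-positive cells and 1.65 and 2.30 against 1.49 and 1.86 in Sirpa-negative cells. Immature and mature values overlapped in both subsets, with estimates of 0.12 ± 0.28 and -0.30 ± 0.28. Cd5, a dampener of receptor signals, measured -2.03 and -1.77 against -1.87 and -1.62, and -1.98 and -2.65 against -1.50 and -1.86, with estimates of 0.15 ± 0.28 and 0.63 ± 0.28 that did not pass (adjusted p = 0.83 and 0.192).

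Cd6, the neighbour of Cd5 and a receptor for ALCAM, was measured by a pair of probes that disagreed. The probe used for the gene measured 1.16 and 0.76 against 0.48 and 0.10 in Sirpa-positive cells and 1.32 and 1.54 against -0.03 and 0.45 in Sirpa-negative cells, a difference in the latter of -1.22 ± 0.27 (adjusted p = 0.0232). The other probe measured -2.13 and -1.98 against -0.85 and -0.69 in Sirpa-negative cells, 1.29 ± 0.24 higher (adjusted p = 0.0142). With the probes of a gene averaged the Cd6 difference was 0.03, so no direction is given for the gene.

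Of the rearrangement genes, 2 of 4 were higher in mature Sirpa-positive cells and 3 of 4 in mature Sirpa-negative cells, when 4.35% and 9.22% of all genes were. Rag1 measured -3.53 and -3.89 against -2.43 and -2.36 in Sirpa-positive cells and -3.67 and -3.39 against -1.61 and -1.20 in Sirpa-negative cells. Every mature array exceeded every immature one, by 1.32 ± 0.24 (adjusted p = 0.0228) and 2.12 ± 0.24 (adjusted p = 0.00209), with Sirpa-negative immature array 4 not well above background. Dntt measured 1.05 and 1.28 against 2.04 and 2.16, and 1.64 and 1.75 against 2.97 and 3.14. Its 4 groups did not overlap, with maturation differences of 0.93 ± 0.20 (adjusted p = 0.0365) and 1.36 ± 0.20 (adjusted p = 0.00526), and mature Sirpa-positive cells were 1.94-fold lower than mature Sirpa-negative cells (adjusted p = 0.0377).

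Rag2 was higher in mature Sirpa-negative cells, at -2.16 and -2.08 against -3.90 and -4.23, by 1.95 ± 0.31 (adjusted p = 0.0077), and was lower in mature Sirpa-positive than mature Sirpa-negative cells (adjusted p = 0.0377). It was not well above background on either immature Sirpa-positive array, nor on immature Sirpa-negative array 4, and on mature Sirpa-positive array 6 it was not either, so no fold is given there (adjusted p = 0.154) and the comparison of mature cells rests on 1 measured Sirpa-positive array. Ptcra measured -1.68 and -2.07 against -1.02 and -1.97 in Sirpa-positive cells and -1.93 and -1.99 against -0.74 and -1.26 in Sirpa-negative cells. Stages overlapped in the first subset and not in the second, and neither estimate passed (0.38 ± 0.35 and 0.96 ± 0.35, adjusted p = 0.635 and 0.115).

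The transcription regulators held the largest maturation difference of any member. Tcf7, encoding TCF-1, the regulator that starts T lineage specification, measured 1.60 and 1.44 on the Sirpa-positive immature arrays, 4.07 and 4.09 on the mature ones, 0.93 and 0.68 on the Sirpa-negative immature arrays and 4.76 and 4.10 on the mature ones. Every mature array lay above every immature array. The difference was 2.56 ± 0.26 (5.90-fold, adjusted p = 0.00318) in Sirpa-positive cells and 3.63 ± 0.26 (12.3-fold, adjusted p = 0.000549) in Sirpa-negative cells, and its other probe gave 2.48 and 3.55.

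Lef1, the partner of TCF-1, measured -0.49 and 0.28 against 1.0 and 1.33, and -0.63 and -0.56 against 1.10 and 1.18, immature first and Sirpa-positive cells first. It did not overlap between stages, with differences of 1.27 ± 0.28 (adjusted p = 0.0428) and 1.73 ± 0.28 (adjusted p = 0.00807). Gata3, a regulator of CD4 lineage choice, measured -2.90 and -3.44 against -1.77 and -2.02, and -3.06 and -3.43 against -1.50 and -2.05, with differences of 1.27 ± 0.30 (adjusted p = 0.0481) and 1.47 ± 0.30 (adjusted p = 0.0167). Satb1, a chromatin organiser of thymocytes, was higher in mature Sirpa-negative cells by 1.49 ± 0.30 (adjusted p = 0.0162).

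Bcl11b, which holds thymocytes to the T lineage, measured -1.93 and -1.73 against -1.55 and -1.49 in Sirpa-positive cells and -1.87 and -2.61 against -1.57 and -1.50 in Sirpa-negative cells. The stages did not overlap, but neither difference passed (0.31 ± 0.27 and 0.70 ± 0.27, adjusted p = 0.62 and 0.132). A second Bcl11b probe gave 2.51 ± 0.48 in Sirpa-negative cells (adjusted p = 0.0147).

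**Figure D3:**
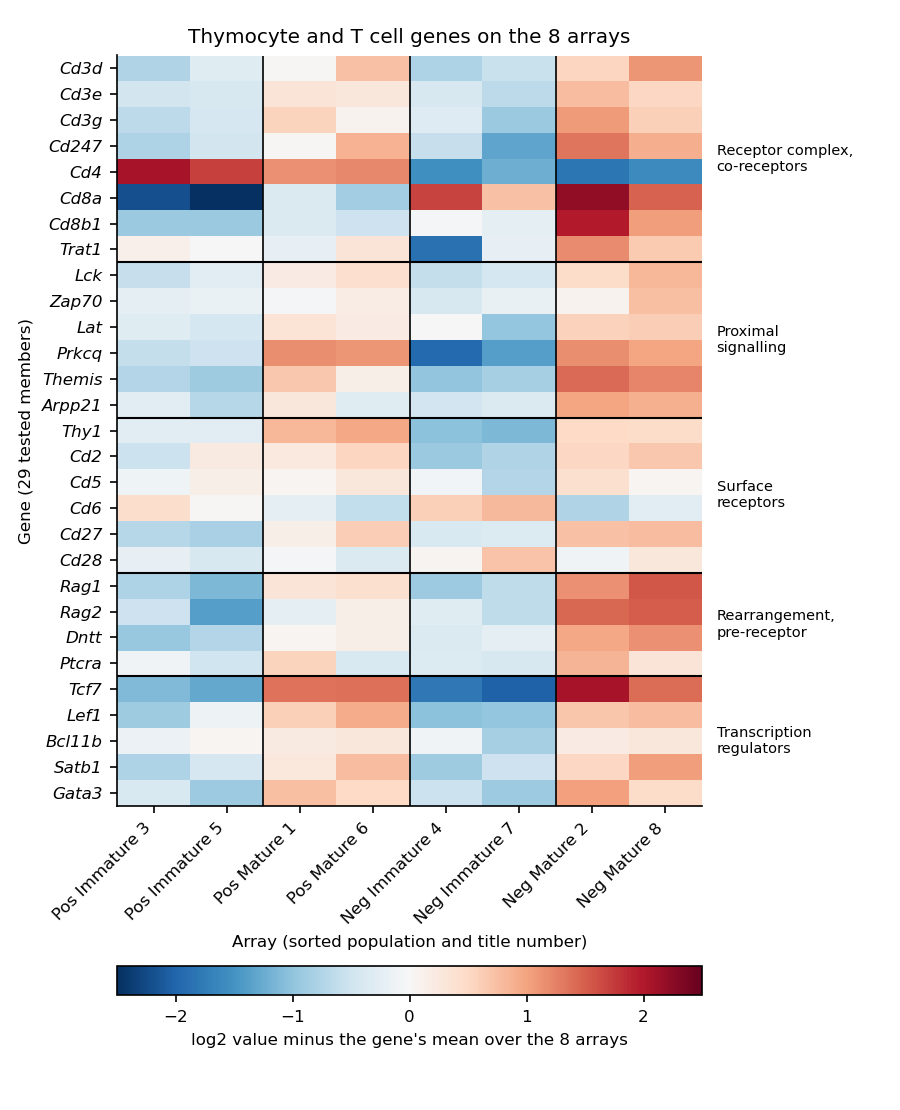
Log2 value of the 29 tested members (rows, grouped by role) on the 8 arrays (columns), minus each gene's mean over the arrays; red is above and blue below that mean, and the colour scale ends at 2.5. The Sirpa-negative mature columns are red for most rows, Cd4 and Cd8a run opposite to each other between the subsets, and Tcf7 changes most with maturation.

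To test for a common factor, each array's mean of Cd3d, Cd3e and Cd3g was subtracted and every gene was fitted again. This reference was higher in mature cells by 0.83 in Sirpa-positive and 1.37 in Sirpa-negative cells, and differed between the subsets by 0.11 among immature and -0.43 among mature cells. In Sirpa-positive cells 4 of the other 26 members differed from the CD3 chains, 2 above them (Tcf7 and Prkcq) and 2 below (Cd4 and, by the probe used for it, Cd6), when 49.1% of all genes did, 2.44% above and 46.7% below. In Sirpa-negative cells 8 of 26 did, 3 above (Tcf7, Prkcq and Themis) and 5 below (Cd4, Cd5, Cd28 and, by the probes used for them, Cd6 and Bcl11b), when 79.9% of all genes did, 2.75% above and 77.2% below. A gene that did not differ with maturation lies below the CD3 chains here by construction.

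Tcf7 exceeded the CD3 factor by 1.73 ± 0.27 in Sirpa-positive cells (adjusted p = 0.00536) and by 2.26 ± 0.27 in Sirpa-negative cells (adjusted p = 0.000507), the largest excess of any member in both. Prkcq exceeded it by 0.86 ± 0.29 (adjusted p = 0.041) and 1.36 ± 0.29 (adjusted p = 0.00359), and Themis by 0.86 ± 0.29 in Sirpa-negative cells (adjusted p = 0.0248). Cd4 fell short of it by -1.54 ± 0.29 (adjusted p = 0.00827) and -1.69 ± 0.29 (adjusted p = 0.00157), and Cd28 by -1.66 ± 0.35 in Sirpa-negative cells (adjusted p = 0.00364). Cd5 at -0.74 ± 0.25 (adjusted p = 0.025) and Bcl11b at -0.67 ± 0.24 (adjusted p = 0.0332) also lay below it there. The second probes of Cd6 and Bcl11b do not share this: their maturation differences of 1.29 and 2.51 in Sirpa-negative cells compare with 1.37 for the CD3 chains. The Tcf7 calls passed in 12 of 12 alternatives in each subset and Cd28 in 12 of 12, while Prkcq passed in 2 of 12 in Sirpa-positive cells and 10 of 12 in Sirpa-negative cells, Themis in 6 of 12 and Bcl11b in 5 of 12.

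Estimates within 0.5 log2 (1.41-fold) of the CD3 factor were found for 16 of 26 members in Sirpa-positive cells, against 19.8% of all genes, and for 12 of 26 in Sirpa-negative cells, against 8.49%. The same 12 lay within it in both: Thy1, Cd8b1, Ptcra, Dntt, Lck, Lat, Cd2, Lef1, Satb1, Gata3, Cd27 and Arpp21, against 4.68% of all genes. The CD3 reference moved by 0.83 and 1.37, so a gene that did not differ with maturation lies outside the band by construction. The shares of all genes are low for that reason, and a higher share in a list that rose with maturation does not test for a common factor. The median half-width of the 95% interval was 0.701 log2 (1.63-fold), so a member inside the band can still differ from the CD3 chains by more than the band, and a missed threshold does not show equal factors. In the comparisons between subsets the members' share was near that of all genes: 13 of 26 lay within the band among immature cells, against 58.6%, and 17 of 26 among mature cells, against 59.7%. Cd4 and Cd8a differed from the CD3 chains among immature cells (3.16 and -3.76), and Cd4, Cd8a and Cd8b1 among mature cells (3.31, -2.03 and -1.52), when 10.9% of all genes did among immature cells (5.90% above, 5.01% below) and 7.49% among mature cells (6.49% above, 0.993% below).

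**Figure D4:**
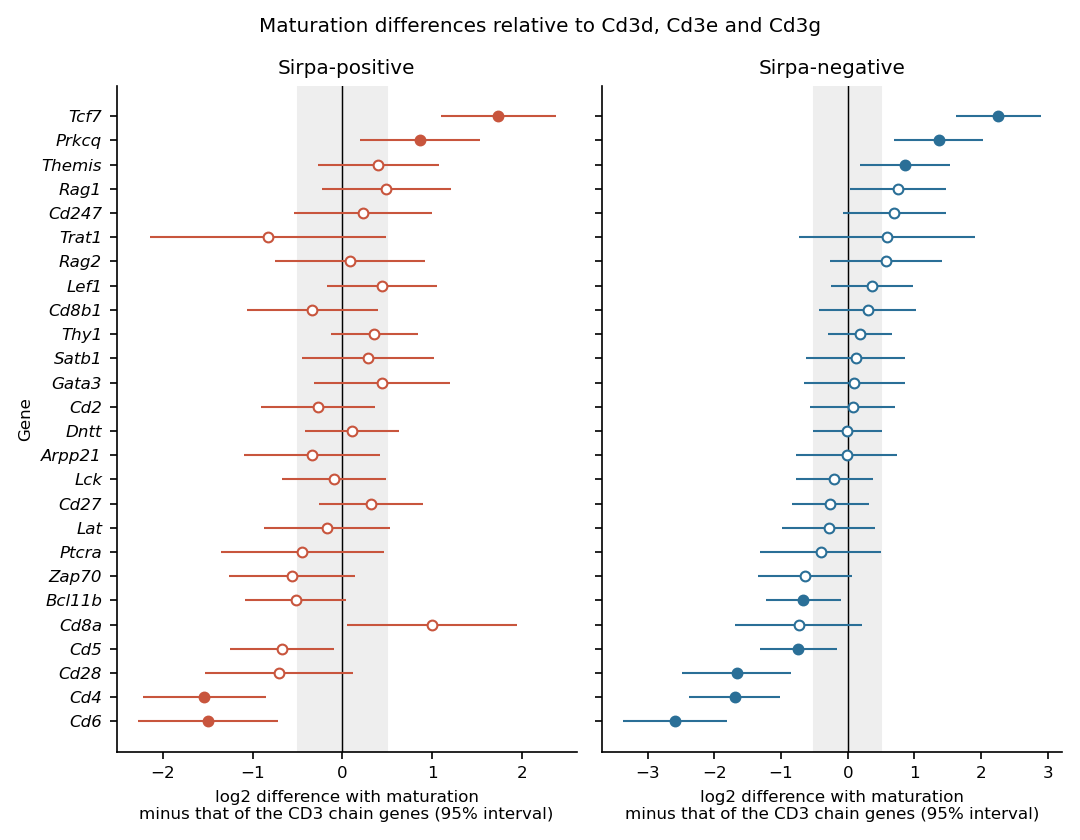
Difference with maturation minus that of the CD3 chain genes (horizontal axis, log2) for 26 members (vertical axis, ordered by the Sirpa-negative value) in Sirpa-positive (left) and Sirpa-negative (right) cells, on separate scales. Points are estimates, bars 95% intervals, filled points passed an adjusted p of 0.05, and the grey band spans 0.5 either side of 0; Tcf7 is the highest in both panels, and Cd4 and Cd6 are the lowest 2.

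On the unlogged scale, the gain from immature to mature cells can be set side by side in the subsets. Of 26 members with a gain in both, 25 gained more in Sirpa-negative cells, with a median ratio of 2.09 and a range from 0.877 (Thy1) to 85.6 (Trat1, whose Sirpa-positive gain was near 0). The ratio was 1.77 to 1.99 for the CD3 genes, 2.49 to 4.66 for the rearrangement genes, 1.19 to 1.90 for the transcription regulators, 1.18 to 3.93 for the signalling genes and 0.877 to 3.59 for the surface receptors. These ratios have no test and were not taken over all genes, so the count of 25 of 26 has no baseline. On the log2 scale the Sirpa-negative minus the Sirpa-positive maturation difference was above 0 for 25 of 29 members, with a median of 0.46. It was above 0 for 11572 of all 24171 genes, with a median of -0.02, and 0 members were called. Of all genes 4.35% were called higher with maturation in Sirpa-positive and 9.22% in Sirpa-negative cells. Many ratios differed between the slide's rows. Dntt gave 2.63 and 2.39 and Prkcq 1.19 and 1.17, but Cd3d gave 3.80 and 1.46 and Cd2 gave 42.5 and 1.40. In the second row Thy1 (0.78), Cd247 (0.98), Bcl11b (0.844), Cd5 (0.257) and Lef1 (0.898) gained less in Sirpa-negative cells.

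The genes outside the members did not all follow. Beside the counts below, 4.35% of all genes were higher and 2.53% lower with maturation in Sirpa-positive cells, and 9.22% and 7.24% in Sirpa-negative cells. Of 22 tested genes of other receptor signalling steps, 3 were higher and 2 lower with maturation in Sirpa-positive cells and 7 higher and 4 lower in Sirpa-negative cells, with medians of 0.15 and 0.30. Icos, a costimulatory receptor, rose in both subsets, by 2.22 ± 0.21 in Sirpa-positive cells and by 1.85 ± 0.21 in Sirpa-negative cells. Sla and Ptpn7, both negative regulators of signalling, fell in both, by 1.77 ± 0.29 and 1.55 ± 0.36 in Sirpa-positive cells and by 1.57 ± 0.29 and 1.91 ± 0.36 in Sirpa-negative cells. Of 23 other thymocyte genes, 5 were higher and 1 lower in Sirpa-positive cells and 5 higher and 6 lower in Sirpa-negative cells, with medians of 0.09 and 0.34.

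Markers of other cells were measured on the same arrays, and their part in the member differences was not tested. The summed unlogged level of the 29 members was 54.2 to 60.3 on immature and 77.9 to 82.4 on mature Sirpa-positive arrays, and 44.6 to 55.1 and 96.8 to 116 on Sirpa-negative ones. A few genes weigh heavily in it: Cd4 averaged 30.1 on immature Sirpa-positive arrays, and Cd8a and Tcf7 32.6 and 22.1 on mature Sirpa-negative ones. The receptor complex and co-receptor genes summed to 33.2 to 39.9 on immature and 32.0 to 33.8 on mature Sirpa-positive arrays. On Sirpa-negative arrays they summed to 22.8 to 35.7 and 41.0 to 55.55. With maturation in Sirpa-positive and then Sirpa-negative cells, 4.35% and 2.53%, then 9.22% and 7.24%, of all genes were called higher and lower. In the same order the genes called were 1 and 0, then 2 and 1, of 14 dendritic cell markers. They were 1 and 1, then 3 and 4, of 14 plasmacytoid markers, 2 and 1, then 1 and 0, of 11 B cell markers, and 1 and 0, then 0 and 1, of 11 NK and innate lymphoid markers. They were 0 and 2, then 2 and 1, of 13 macrophage and monocyte markers, 2 and 1, then 3 and 0, of 11 thymic epithelial markers, and 0 and 0 in both of 2 red cell markers.

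Of 18 cell cycle genes, 0 were higher and 9 lower in mature Sirpa-positive cells and 0 higher and 10 lower in mature Sirpa-negative cells, opposite in direction to the members. Of all genes 2.53% and 7.24% were lower there. The summed cell cycle level lay between 77.3 and 101 on immature and between 38.4 and 45 on mature Sirpa-positive arrays, and between 123 and 126 on immature and between 49.6 and 61.8 on mature Sirpa-negative arrays. The summed level of the 11 listed thymic epithelial markers was 9.03 to 9.06 on immature and 17.2 to 17.6 on mature Sirpa-negative arrays. It was 19.3 to 21.8 and 17.5 to 18.4 on Sirpa-positive ones. With maturation in Sirpa-negative cells, 10 of the 11 had an estimate above 0. Among them Ly75 measured 0.734 and 0.872 on the immature arrays there and 2.352 and 2.396 on the mature ones. Foxn1 measured -3.855 and -3.117 against -2.382 and -2.961. Its value of -3.855, on immature array 4, lay below -3.30, the lowest signal well above background on that array. Whether the epithelial sum, or Ly75 within it, follows RNA of epithelial cells or of the sorted cells themselves was not tested. Macrophage and monocyte markers were higher in Sirpa-positive cells for 13 of 13 genes when immature and 10 of 13 when mature, with summed levels of 401 to 677 against 15.2 to 19.0. Of all genes 7.22% and 3.38% were higher in these comparisons. Of 15 NK and innate lymphoid markers on the array, 7 were above background on all 8 arrays. Another 3, among them Klrb1c, which encodes NK1.1, were above background on 0 arrays.

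Each slide row held 1 array of every group, and the member medians within rows were 0.73 and 0.88 with maturation in Sirpa-positive cells and 1.40 and 1.36 in Sirpa-negative cells, with 24 or more of 29 members higher in each. The medians of all genes within rows were -0.01 and 0.03 in Sirpa-positive cells and -0.02 and -0.03 in Sirpa-negative cells. How many of all genes were higher within a row was not counted. Between the 2 arrays of a group the members' differences had an SD of 0.38 to 0.542, and the largest, of -1.67, was among the immature Sirpa-negative arrays. With 2 arrays a group, the count of called members depended on single arrays. In Sirpa-positive cells it went from 10 to 4 without mature array 1, 1 without mature array 6, 1 without immature array 3 and 2 without immature array 5. In Sirpa-negative cells it went from 21 to 12 without mature array 2, 15 without mature array 8, 14 without immature array 4 and 10 without immature array 7. Tcf7 passed in 17 of 17 alternatives in both subsets, at 2.45 to 2.64 and 3.29 to 3.96, and Cd4 in 17 of 17 in both comparisons between subsets. Of the other 8 members higher in both subsets, the Sirpa-positive call passed in 13 of 17 alternatives for Thy1, 12 of 16 for Prkcq, 11 of 17 for Cd27, 8 of 16 for Themis and for Rag1, 7 of 17 for Dntt and 6 of 17 for Lef1 and for Gata3. Their Sirpa-negative call passed in each alternative for 6 of the 8, and in 12 of 17 for Gata3 and for Cd27. The Sirpa-negative maturation call of Trat1 passed in 3 of 16. Between subsets among immature cells, Cd8a passed in 17 of 17 alternatives, Thy1 in 10 of 17 and Prkcq in 9 of 16. Among mature cells Cd8a and Cd8b1 passed in 14 of 17 each, Rag2 in 9 of 16 and Dntt in 5 of 17.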

How the data were processed

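RNA of sorted mouse thymic dendritic cells was amplified and labelled with Cy3 (Agilent low-input kit, per the labels' protocols) and read on 8 one-colour arrays of 1 slide. The deposited scanner files hold background-subtracted spot intensity, extracted with Agilent Feature Extraction 10.7.3.1 per the file headers (10.5, and limma, per the submitters' processing notes). The value table that the authors deposited was read as log2 from its range, and served as an alternative: its column medians were 5.99 to 6.01, its values correlated at 0.958 to 0.978 with the scanner values of the same arrays, and its centring is not stated. No column of mean signal was used, so the normexp alternative (offset 50) took median signals.

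The 59305 non-control spots per array were reduced by 110 to 270 outlier spots, and no spot was saturated. The 75th percentile of intensity was 147 to 313, and the number of arrays limits the precision. Values are log2 intensity minus each array's 75th percentile, averaged over spots of a probe. A probe was kept where some group had both its arrays well above background (33715), and a gene was given by its kept probe of highest mean (5874 genes had several). Symbols came from the RefSeq table (GRCm38.p6) by accession: 26582 probes had 1 and 29099 had none. A transcript without a symbol counted as a gene under its array name, so every share of all genes includes such transcripts. Differences were tested with limma 3.58.1 in R 4.3.3, with 4 group means over all 8 arrays, two-sided, Benjamini-Hochberg adjusted over 24171 genes (over 24168 after subtraction of the CD3 mean). The script was tested on simulated data. Exact permutation of 2 against 2 arrays cannot go below p = 0.333.

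All members are named: values on every array are given for members called in both maturation comparisons or relative to the CD3 chains, and always for Tcf7, Cd3d, Cd3e, Cd3g, Cd4, Cd8a, Cd8b1, Rag1, Ptcra, Lck and Thy1; others by range or estimate. From other lists up to 2 genes a direction were named. Members and lists were chosen with earlier results of these data known.

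Alternatives were another background and normalization, the authors' table, other probe filters and probe averaging, slide row or set of title numbers as a block, the compared arrays alone, other reference genes and each array left out.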

Additional observations from a re-analysis of the deposited data

How the results depend on the processing

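No paired analysis was possible because the title numbers of the 8 arrays are all different and the groups share no replicate number; slide row and set of title numbers (1 to 4 and 5 to 8), each holding 1 array of every group, were fitted as blocks instead. Each count of called members below is set against its value in the report, and an alternative's direction was compared only where the value was called. With all probes kept, the members called with maturation were 10 in Sirpa-negative and 1 in Sirpa-positive cells, and between subsets 2 among immature and 1 among mature cells, of 37208 genes tested in place of 24171. With the slide row as a block the Sirpa-positive maturation count was 5, with title number sets blocked it was 12 (23 in Sirpa-negative cells), and with the compared arrays alone it was 5, and 2 between subsets among immature cells. Asking every kept probe of a gene to be called the same way, chosen after seeing the data, gave 5. Relative to the CD3 chains, normexp with quantile normalization gave 13 members in Sirpa-negative and 9 in Sirpa-positive cells, the authors' value table gave 7 in Sirpa-positive cells, and a reference of Lck, Zap70 and Cd247 gave 1 between the subsets among mature cells. The cause of these moves was not tested. Averaging a gene's probes turned Cd6 in Sirpa-negative maturation to 0.0345.

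Leaving out each array in turn gave 1 to 9 called members with maturation in Sirpa-positive cells, 10 to 20 in Sirpa-negative cells, 2 to 4 between subsets among immature cells and 1 to 4 among mature cells. Relative to the CD3 chains it gave 1 to 5, 5 to 10, 2 to 4 and 1 to 3 in the same order. Where this left a group with 1 array, that array was assumed to vary like the other groups. The member median stayed above 0 with maturation in every alternative set out with the comparisons, at 0.382 to 0.939 in Sirpa-positive and 0.808 to 1.47 in Sirpa-negative cells. The lowest came with normexp and quantile normalization, whose offset is added to every signal. The test of the difference between the maturation changes called 0 members in each alternative, and over all genes 0 in the report's fit, 181 with normexp and quantile normalization and 151 with the authors' value table. Of 2411 single member values under alternatives, 169 lost a call, 18 gained one and 1 turned direction. These 2411 values leave out those relative to the CD3 chains, where the Prkcq estimate in Sirpa-negative maturation turned to -0.17 under an alternative. Levels near background limit Rag2, Trat1, Prkcq, Themis and Rag1, which were not well above background on at least 1 array.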
